A study of Mus musculus with 12 samples.

Results

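Cytochrome c oxidase subunits with general and tissue-specific isoforms were followed in natural killer (NK) cells of mice lacking the microRNA miR-142. The 10 genes were Cox6a1, Cox6a2, Cox4i1, Cox5a, Cox5b, Cox6b1, Cox6c, Cox7a1, Cox7a2 and Cox8a, taken out of 19938 genes with a probe set of their own. Each was read from the probe set that the platform annotation gives to that gene alone, and from the one with the highest mean where there were several. They were chosen by their log2 signals over the 4 groups of these arrays, in which Cox6a2 stood apart from the other subunits. Their differences are therefore given with standard errors and intervals as a description, with no test. All 10 passed the filter on low signals, a mean above 5.49 on the log2 scale.

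The study measured 12 Affymetrix arrays in 4 groups of 3: miR142 KO spleen, miR142 WT spleen, miR142 KO bone marrow and miR142 WT bone marrow. All mice were C57BL6, 7 to 10 weeks old and matched for age and sex, and the cells were sorted as CD3- NK1.1+. Replicates are labelled as biological, and the labels do not say how the KO allele was made or whether animals were pooled. They received no treatment beyond the sort, per the labels. A p-value sets a difference against the spread between these arrays within their groups. In such bulk samples, fewer cells of a type and less RNA per cell cannot be told apart.

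Cytochrome c oxidase is the terminal complex of the mitochondrial respiratory chain and passes electrons from cytochrome c to oxygen while pumping protons. Its catalytic core is encoded by mitochondrial DNA, and the surrounding subunits by nuclear genes. Several nuclear subunits exist as alternative isoforms: Cox6a2, Cox7a1 and Cox8b are the heart and skeletal muscle forms, whereas Cox6a1, Cox7a2 and Cox8a are the forms found in most tissues. Cox4i1, Cox5a, Cox5b, Cox6b1 and Cox6c are also broadly expressed subunits.

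The sequences that the genotypes differ by are the mature strands of miR-142, shown here because they are what the KO cells lack. They are given 5′ to 3′ from RefSeq (GRCm38.p6, plus strand of chromosome 11), with the seed, bases 2 to 8, in capitals. The 5p strand lies at chr11:87756867-87756887 and the 3p strand at chr11:87756903-87756925.
mmu-miR-142a-5p: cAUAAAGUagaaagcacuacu
mmu-miR-142a-3p: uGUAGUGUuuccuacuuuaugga
The strands have different seeds. The Mir142 probe set checked the labels: its log2 signal was 4.05, 4.59 and 4.50 in KO spleen, against 6.77, 7.17 and 7.58 in WT spleen. In KO bone marrow it was 4.69, 4.70 and 4.26, against 7.10, 8.25 and 7.14 in WT bone marrow. Every KO array lay below every WT array of its tissue.

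Cox6a2, the muscle isoform of subunit 6a, had a much higher signal in KO than in WT NK cells of both organs. Its log2 signal was 11.50, 11.53 and 11.90 in KO spleen, against 7.84, 7.91 and 8.28 in WT spleen. In KO bone marrow it was 11.08, 10.70 and 11.25, against 8.85, 8.57 and 8.72 in WT bone marrow. The KO and WT arrays did not overlap in either organ, and all 6 KO arrays lay above all 6 WT arrays.

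The KO minus WT difference of Cox6a2 was 3.65 ± 0.18 in spleen (SE; 95% interval 3.27 to 4.04), a 12.6-fold higher signal. In bone marrow it was 2.25 ± 0.20 (1.82 to 2.68), a 4.76-fold higher signal. These differences came from a linear model over all arrays with the run of array numbers as a covariate. The labels' array numbers fall into 2 runs of 7 and 5 arrays. Within run 1 the spleen difference was 4.03 (1 KO array, 2 WT arrays) and within run 2 it was 3.24 (2 KO arrays, 1 WT array). In bone marrow it was 2.16 within run 1 (3 KO arrays, 1 WT array), and run 2 held no KO bone marrow array.

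**Figure D1:**
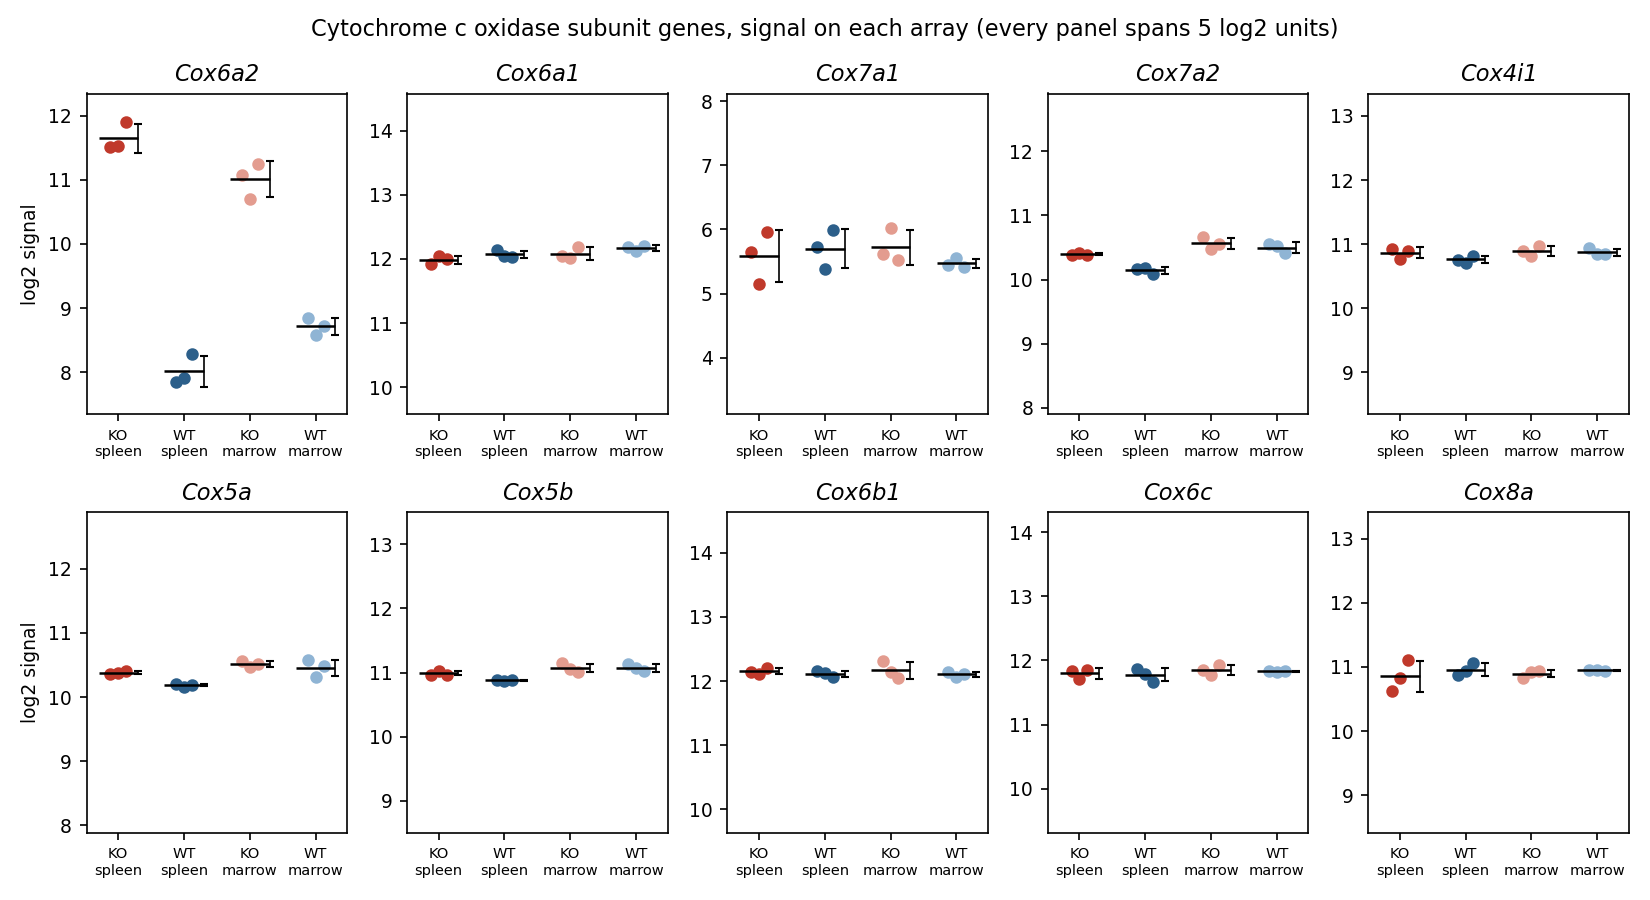
Log2 signal (vertical axis) of the 10 cytochrome c oxidase subunit genes in each array, by genotype and organ, with 1 point per array, a line at the group mean and a bar of 1 SD to each side. Cox6a2 lay between 10.70 and 11.90 in the 6 KO arrays and between 7.84 and 8.85 in the 6 WT arrays, while the other genes kept within 0.88 over all arrays.

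The group means of Cox6a2 had the order KO spleen, KO bone marrow, WT bone marrow and WT spleen. They were 11.64 ± 0.22 in KO spleen and 8.01 ± 0.23 in WT spleen, and 11.01 ± 0.28 in KO bone marrow and 8.71 ± 0.14 in WT bone marrow (log2, SD, n = 3). No neighbouring groups in this order overlapped. The organs therefore ran in opposite directions in the 2 genotypes: bone marrow minus spleen was -0.68 ± 0.20 in KO (-1.11 to -0.25) and 0.72 ± 0.18 in WT (0.34 to 1.11). The KO minus WT difference was accordingly smaller in bone marrow than in spleen, by -1.40 ± 0.28 (-2.02 to -0.79). That value lay between -1.87 without WT spleen 3 and -1.08 without KO spleen 3. Bone marrow minus spleen was -0.41 in KO without KO spleen 3.

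Cox6a1, the general isoform of the same subunit, showed no such pattern. Its log2 signal was 11.92, 12.04 and 12.003 in KO spleen, against 12.13, 12.04 and 12.03 in WT spleen. It was 12.05, 12.01 and 12.19 in KO bone marrow, against 12.18, 12.12 and 12.20 in WT bone marrow. KO and WT arrays overlapped in both organs, and the differences were -0.07 ± 0.10 in spleen (-0.28 to 0.14) and -0.11 ± 0.11 in bone marrow (-0.34 to 0.12). Set against Cox6a1 array by array, Cox6a2 was higher in KO by 3.72 ± 0.17 in spleen and 2.36 ± 0.19 in bone marrow on the log2 scale. The signals of different probe sets are not on a common scale, so the share of each isoform in the cells cannot be read from them.

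Cox7a1 and Cox7a2 form the second pair of muscle and general isoforms. Cox7a1, the muscle form, had a mean of 5.62, just above the filter and at the 43.2 percentile of all genes. Its log2 signal was 5.65, 5.15 and 5.96 in KO spleen, against 5.73, 5.38 and 5.99 in WT spleen. Bone marrow gave 5.61, 6.02 and 5.52 in KO, against 5.45, 5.55 and 5.42 in WT. KO and WT arrays overlapped in both organs. The difference was -0.10 ± 0.22 in spleen (-0.58 to 0.38) and 0.23 ± 0.24 in bone marrow (-0.31 to 0.76), with spleen values of 0.41 in run 1 and -0.59 in run 2. Differences of dim signals may be compressed on these arrays, so a small change of Cox7a1 could be missed.

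Cox7a2, the general form, was slightly higher in KO spleen. Its log2 signal was 10.39, 10.42 and 10.38 in KO spleen, against 10.17, 10.18 and 10.08 in WT spleen, with no overlap. It was 10.66, 10.47 and 10.56 in KO bone marrow, against 10.56, 10.53 and 10.41 in WT bone marrow, where the arrays overlapped. The differences were 0.27 ± 0.09 in spleen (0.07 to 0.48) and 0.03 ± 0.10 in bone marrow. The muscle form minus the general form differed between KO and WT by -0.37 ± 0.24 in spleen and 0.20 ± 0.27 in bone marrow, so this pair did not show the shift seen between Cox6a2 and Cox6a1.

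The 6 remaining subunits differed little between genotypes. Cox5a, a matrix-facing subunit, was 10.36, 10.37 and 10.41 in KO spleen, against 10.20, 10.16 and 10.19 in WT spleen. These arrays did not overlap, and the difference was 0.22 ± 0.09 (0.02 to 0.42), against 0.01 ± 0.10 in bone marrow. Cox5b, also matrix-facing, differed by 0.11 ± 0.09 in spleen and -0.02 ± 0.10 in bone marrow, without overlap in spleen. Cox4i1, the largest nuclear-encoded subunit, differed by 0.11 ± 0.10 in spleen. Cox6b1, which faces the intermembrane space, differed by 0.06 ± 0.10 in spleen and 0.02 ± 0.11 in bone marrow. Cox6c differed by 0.05 ± 0.09 and -0.03 ± 0.11. Cox8a, the general form of subunit 8, differed by -0.08 ± 0.12 and -0.11 ± 0.14, with spleen values of 0.20 in run 1 and -0.34 in run 2.

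Over the 9 genes other than Cox6a2, the median KO minus WT difference was 0.06 in spleen (range -0.10 to 0.27), against a median of -0.01 over all tested genes. In spleen 6 of the 9 lay above 0 and 3 below. In bone marrow the median was -0.00081 (range -0.11 to 0.23), with 4 above 0 and 5 below, and its sign turned in 9 of 20 other settings. The KO arrays lay wholly above the WT arrays for 3 of the 9 in spleen (Cox7a2, Cox5a and Cox5b; 14.0% of all tested genes) and for 0 in bone marrow (16.4%). As the values of these contrasts chose the genes, nothing is read from these counts. Leaving Cox7a1 aside, the 95% intervals of the other 8 genes reached from -0.35 to 0.48 in spleen and from -0.40 to 0.26 in bone marrow.

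The spread shows how far Cox6a2 stood from the others. Its signal spanned 4.06 on the log2 scale over the 12 arrays, whereas those of the other 9 genes spanned 0.26 to 0.88. Their group means lay within 0.07 to 0.42 of each other, with SDs within a group of 0.0078 to 0.41. The mean over the 8 genes without Cox6a2 and Cox7a1 was 11.15, 11.16 and 11.23 in KO spleen, against 11.13, 11.10 and 11.10 in WT spleen. It was 11.29, 11.21 and 11.27 in KO bone marrow, against 11.29, 11.22 and 11.23 in WT bone marrow. KO arrays of spleen were thus slightly above WT arrays of spleen, and those of bone marrow overlapped.

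**Figure D2:**
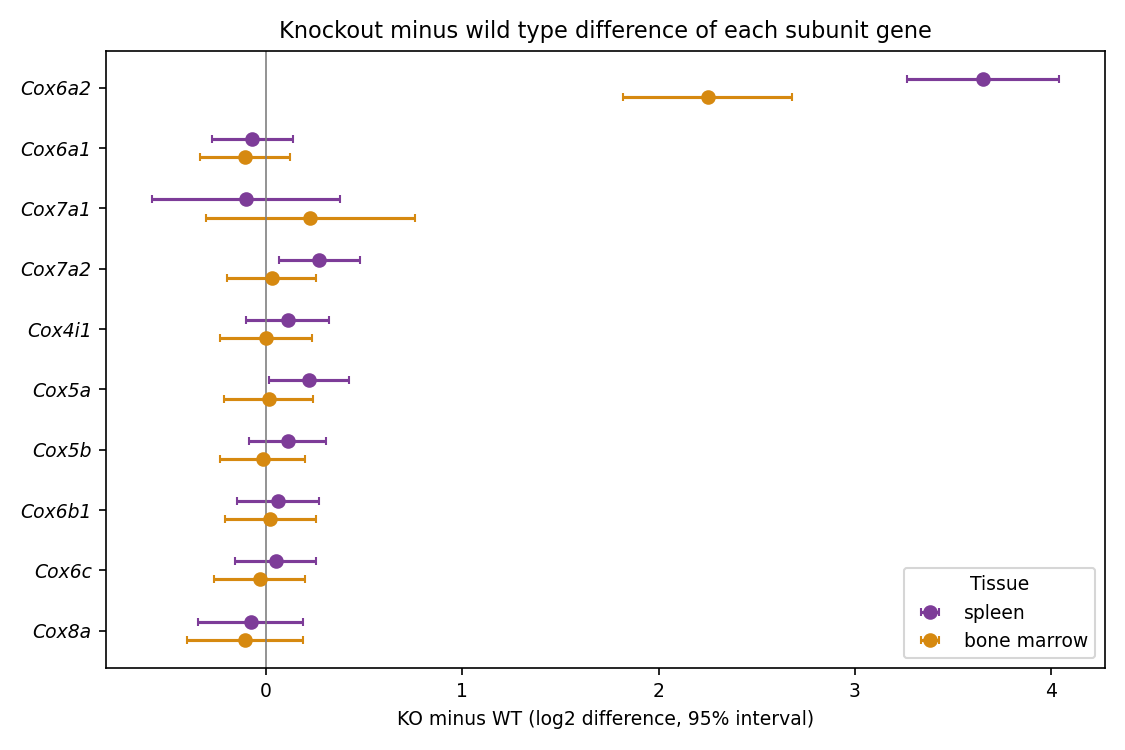
KO minus WT difference (log2, horizontal axis) of each of the 10 genes in spleen and bone marrow, with 95% intervals from the fit over all arrays. Cox6a2 stood at 3.65 in spleen and 2.25 in bone marrow, and the other 9 between -0.11 and 0.27.

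Between organs, some of the broadly expressed subunits ran slightly higher in bone marrow. In WT, bone marrow minus spleen had a median of 0.11 over the 9 genes, and -0.02 over all tested genes. It was 0.37 ± 0.09 for Cox7a2, 0.29 ± 0.09 for Cox5a and 0.20 ± 0.09 for Cox5b. Cox6b1 (0.01 ± 0.10) and Cox8a (0.02 ± 0.12) hardly differed, and the muscle form Cox7a1 lay at -0.22 ± 0.22. The bone marrow arrays lay above the spleen arrays for 4 of the 9 (Cox7a2, Cox5a, Cox5b and Cox4i1; 16.4% of all tested genes). In KO the median was 0.07, with 6 above 0 and 3 below (Cox6b1, Cox6c and Cox8a). There 2 of the 9 did not overlap (Cox7a2 and Cox5a, against 7.62% of all tested genes). Nothing is read from these counts either, since the values of the 4 groups chose the genes. Cox6a2 shared the direction of Cox7a2, Cox5a and Cox5b in WT and had the opposite one in KO.

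Promoters of 250 bases before to 50 bases after the start were found in RefSeq (GRCm38.p6) for 7 of the 10 genes. Cox6a2, Cox4i1 and Cox6c had no entry. The promoters of a general isoform, Cox6a1, and of a muscle isoform, Cox7a1, are shown. They belong to different subunits and are not a matched pair. Cox6a1 lies on the minus strand at chr5:115348909-115349208 and Cox7a1 on the plus strand at chr7:30183921-30184220. Capitals mark matches on either strand to GCGCA and GCGC with any base between (NRF1), CCGGAAG (GABPA), CANNTG (E-box), or CTA and TAG with any 4 bases between (MEF2), and matches may overlap.
Cox6a1: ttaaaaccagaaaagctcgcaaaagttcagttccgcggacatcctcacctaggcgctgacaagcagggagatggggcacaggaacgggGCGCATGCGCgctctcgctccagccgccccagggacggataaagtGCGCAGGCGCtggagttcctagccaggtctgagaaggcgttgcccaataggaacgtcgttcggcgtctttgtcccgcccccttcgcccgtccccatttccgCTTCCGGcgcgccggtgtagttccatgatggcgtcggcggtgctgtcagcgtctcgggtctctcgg
Cox7a1: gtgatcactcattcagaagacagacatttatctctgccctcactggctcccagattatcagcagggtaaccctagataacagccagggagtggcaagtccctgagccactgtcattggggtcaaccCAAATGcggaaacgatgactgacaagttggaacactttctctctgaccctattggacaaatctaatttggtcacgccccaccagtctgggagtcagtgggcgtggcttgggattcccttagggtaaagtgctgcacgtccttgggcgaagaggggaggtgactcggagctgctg
NRF1 and GABPA are regulators of nuclear respiratory genes, and E-boxes and MEF2 sites are common in muscle genes. Cox6a1 held 2 NRF1 matches, 162 and 117 bases before the start, and 1 GABPA match 16 bases before it. Cox7a1 held only an E-box match, 124 bases before the start. Its general partner Cox7a2 likewise held only an E-box match, 35 bases before the start. Of the 7 promoters, 1 had an NRF1 match (Cox6a1) and 3 a GABPA match (Cox6a1, Cox6b1 and Cox8a). An E-box match was found in 5 (Cox7a1, Cox7a2, Cox5b, Cox6b1 and Cox8a) and a MEF2 match in 1 (Cox5b). The same letters occurred in 4.6%, 8.86%, 72.3% and 3.69% of 32851 promoters, in that order of motifs. A match is a description of the letters, and no match says nothing about the factor.

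The other genes of the complex were read from 5 lists: the mitochondrially encoded subunits, the remaining nuclear subunits, assembly factors, cytochrome c with its haem lyase, and transcriptional regulators of respiratory genes. Of 59 listed genes, 8 had no probe set of their own, among them all mitochondrially encoded subunits, and 5 were below the filter, which left 46 tested. In spleen 3 rose and 1 fell (median 0.04; 5.48% and 3.63% of all tested genes). In bone marrow 2 rose and 1 fell (median -0.10; 3.92% and 4.73%). Over both organs 5 rose and 3 fell (8.81% and 10.3%). Calls were made by limma at a Benjamini-Hochberg adjusted p under 0.05. These counts are near or below the background shares. The count of 4 in spleen was 1 without any of KO spleen 3, WT spleen 1, WT spleen 3, KO bone marrow 1 and KO bone marrow 2, and 2 without any of KO spleen 2, WT spleen 2, KO bone marrow 3 and WT bone marrow 1. The count of 3 in bone marrow was 1 without WT bone marrow 1. The count of 8 over both was 4 without KO spleen 2, 5 without WT spleen 1 and 3 without WT bone marrow 1.

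Mef2c, a transcription factor of muscle and lymphoid genes, was the regulator that rose in both organs. Its log2 signal was 9.06, 9.08 and 8.93 in KO spleen, against 7.72, 8.31 and 7.88 in WT spleen. In KO bone marrow it was 9.24, 9.21 and 9.10, against 7.97, 7.97 and 8.08 in WT bone marrow. The KO arrays lay above the WT arrays in both organs, by 1.05 ± 0.14 in spleen (Benjamini-Hochberg adjusted p = 0.00075, limma) and by 1.19 ± 0.16 in bone marrow (adjusted p = 0.00073, limma). The call held in 20 of 20 other settings in each organ.

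Ppargc1a, a coactivator of mitochondrial biogenesis, rose in bone marrow by 1.03 ± 0.22 (Benjamini-Hochberg adjusted p = 0.0124, limma) and differed by 0.62 ± 0.20 in spleen (0.0715). Its bone marrow difference was 0.70 without WT bone marrow 1 and 0.69 without the run covariate, and neither was called. Its other probe set differed by -0.21 in spleen and 1.58 in bone marrow. Averaging both probe sets gave 0.06 in spleen and 1.60 in bone marrow. The spleen difference passed the test in 5 of 20 other settings. Pprc1, a related coactivator, fell by 0.72 ± 0.18 in bone marrow (Benjamini-Hochberg adjusted p = 0.0306, limma) and lost the call in 6 of 20 settings, among them those without KO bone marrow 1, KO bone marrow 3, WT bone marrow 1 or WT bone marrow 2. In WT cells Pprc1 was higher in bone marrow than in spleen by 0.85 ± 0.16 (limma, Benjamini-Hochberg adjusted p = 0.0134). Higd1a, which associates with the oxidase, was also higher in WT bone marrow, by 0.44 ± 0.10 (0.0328; 4.34% of all tested genes were higher). Mef2a, a relative of Mef2c, fell over both organs by 0.28 ± 0.08 (0.0320), a call lost in 6 of 19 settings: those without KO spleen 2, KO spleen 3, WT spleen 1, WT spleen 3, KO bone marrow 1 or WT bone marrow 1.

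Of 23 assembly factors tested, 2 rose and 1 fell in spleen (median 0.11), where 5.48% and 3.63% of all tested genes did so. None was called in bone marrow (median -0.07), where 3.92% of all tested genes rose and 4.73% fell. Cox20, a chaperone of the second core subunit, rose by 0.44 ± 0.12, and Slirp, a mitochondrial RNA-binding protein, by 0.55 ± 0.15 (limma, Benjamini-Hochberg adjusted p = 0.0448 for each). Coa3, which acts in the assembly of the first core subunit, fell by 0.43 ± 0.12 (0.0484). These calls sat at the threshold and were lost in 15, 11 and 13 of 20 other settings, in the order Cox20, Slirp and Coa3, which include leaving out most single arrays. Over both organs Oxa1l, an inner membrane insertase, rose by 0.40 ± 0.10 (0.0171), a call lost in 2 of 19 settings, those without KO spleen 1 or WT bone marrow 1.

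None of the 6 other nuclear subunits tested was called in either organ (medians 0.03 and -0.0044). Of all tested genes, 5.48% rose and 3.63% fell in spleen, and 3.92% rose and 4.73% fell in bone marrow. For 6 genes, no call is near these shares. Ndufa4, a subunit counted in the same complex, differed by -0.18 ± 0.11 in spleen and -0.35 ± 0.12 in bone marrow. Over both organs, where 10.3% of all tested genes fell, Ndufa4 fell by 0.27 ± 0.07 (limma, Benjamini-Hochberg adjusted p = 0.0254). That call was lost in 5 of 19 settings, those without KO spleen 1, KO spleen 2, WT spleen 1, KO bone marrow 2 or WT bone marrow 1. Cox7b differed by 0.11 ± 0.10 in spleen, and Cox8c, a testis form of subunit 8, by 0.24 ± 0.12 in bone marrow. Cox8b, the muscle form of subunit 8, lay below the filter, with log2 signals of 5.14 to 5.61. Cycs, the somatic cytochrome c, differed by 0.22 ± 0.14 in spleen (Benjamini-Hochberg adjusted p = 0.413, limma) and by 0.15 ± 0.15 in bone marrow (adjusted p = 0.607, limma). Hccs, which attaches its haem, differed by 0.14 ± 0.17 and -0.51 ± 0.19 (0.706 and 0.130). Neither passed the test.

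**Figure D3:**
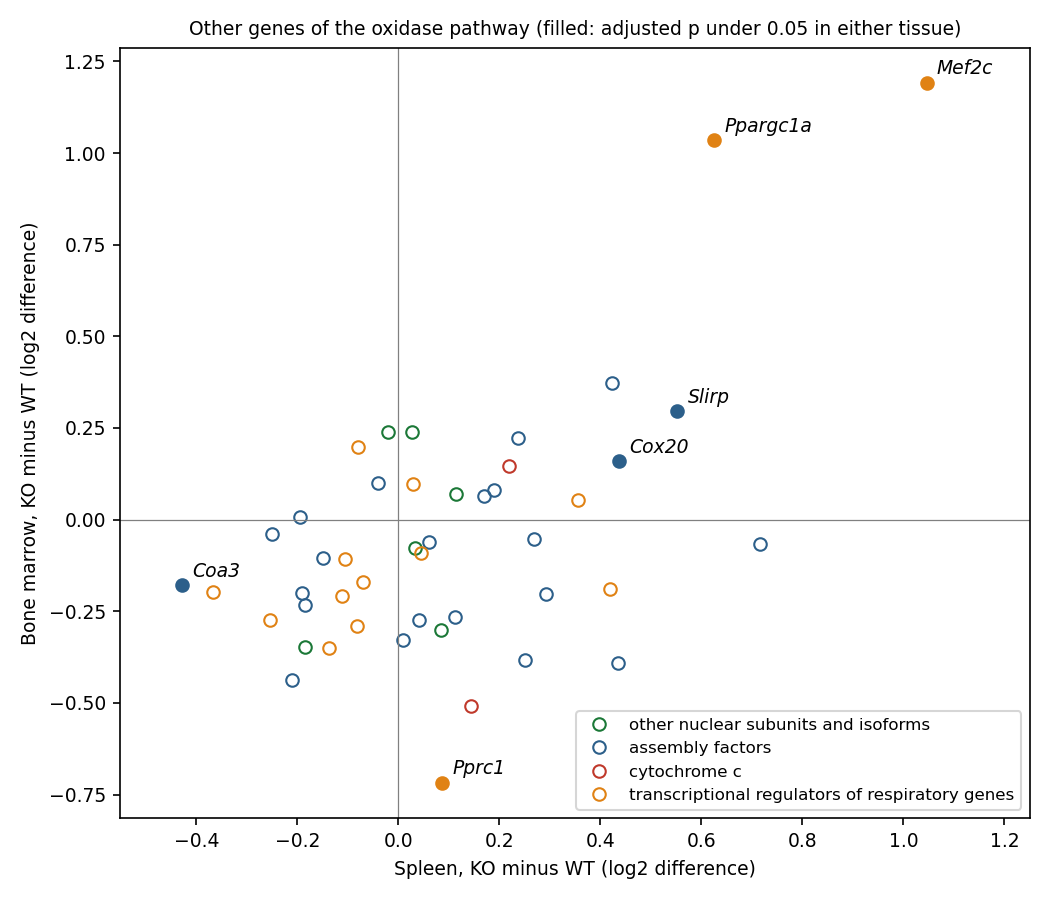
KO minus WT difference (log2) in spleen (horizontal axis) and bone marrow (vertical axis) of the 46 other tested genes of the oxidase lists, with 1 point per gene, coloured by list and filled where the gene was called in either organ. Mef2c, at 1.05 and 1.19, and Ppargc1a, at 0.62 and 1.03, lay farthest out, and most other genes scattered around 0.

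Several genes beside Cox6a2 on chromosome 7 were also higher in KO. In RefSeq (GRCm38.p6) it is flanked by the integrin genes Itgam, Itgax and Itgad on one side and by 9130023H24Rik, Armc5 and others on the other, and the annotation of Itgad overlaps that of Cox6a2. Whether probes lie in the overlap could not be seen from the files. Of the 5 nearest genes on each side with a probe set of their own, 9 of 10 were tested. In spleen 3 rose and 0 fell, in bone marrow 2 rose and 0 fell, and over both organs 6 rose and 1 fell (limma, Benjamini-Hochberg adjusted p under 0.05). In the same order, 5.48%, 3.92% and 8.81% of all tested genes rose, and 3.63%, 4.73% and 10.3% fell.

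Itgad, the integrin alpha D chain, had a log2 signal of 9.93, 9.62 and 9.51 in KO spleen, against 6.93, 7.28 and 6.88 in WT spleen. In KO bone marrow it was 9.29, 9.10 and 9.05, against 6.85, 6.60 and 6.68 in WT bone marrow. Without overlap it rose by 2.68 ± 0.15 in spleen (Benjamini-Hochberg adjusted p = 8.4e-07, limma) and by 2.40 ± 0.16 in bone marrow (adjusted p = 6.5e-06, limma), and its effects in the organs did not pass a test of their difference (-0.28 ± 0.24; adjusted p = 0.755). A second, dim probe set of Itgad differed by 0.20 in spleen and -0.06 in bone marrow, and averaging both probe sets gave 1.44 and 1.17, still called.

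Itgax, which encodes CD11c, rose by 1.36 ± 0.11 in spleen (Benjamini-Hochberg adjusted p = 2.2e-05, limma) and by 1.46 ± 0.12 in bone marrow (adjusted p = 3.1e-05, limma). Its log2 signal was 11.87, 11.74 and 11.76 in KO spleen, against 10.39, 10.44 and 10.42 in WT spleen. Itgam, which encodes CD11b, fell over both organs by 0.44 ± 0.11 (limma, Benjamini-Hochberg adjusted p = 0.0187). Armc5 rose in spleen by 0.43 ± 0.12 (0.0470), a call lost in 14 of 20 settings, most of them leaving out single arrays. The inflammasome adaptor gene Pycard rose over both organs by 0.34 (0.0155), 9130023H24Rik by 0.51 (0.0127) and Tgfb1i1 by 0.28 (limma, Benjamini-Hochberg adjusted p = 0.0376). Over both organs, genes called higher in KO thus lay on both sides of Cox6a2, with Itgam called lower. Slc5a2 (-0.11 ± 0.10 in spleen and 0.19 ± 0.11 in bone marrow) and Rusf1 (0.43 ± 0.14 and -0.08 ± 0.15) were not called. Trim72 lay below the filter. On the side of Armc5, no gene was called in bone marrow.

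**Figure D4:**
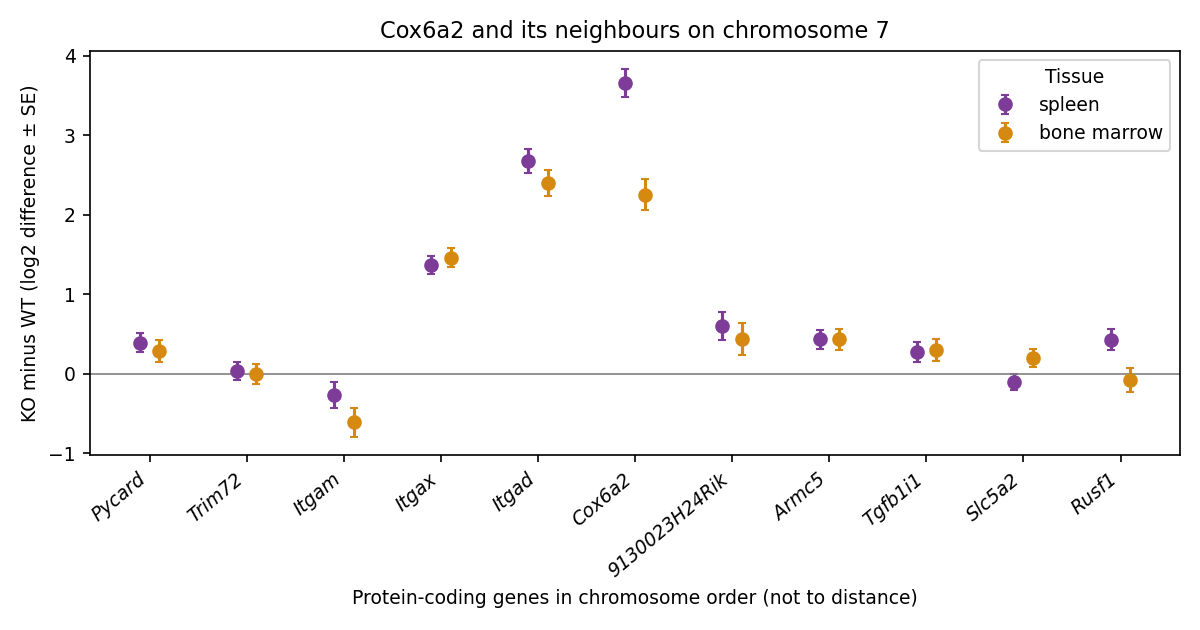
KO minus WT difference (log2, vertical axis, with SE bars) of Cox6a2 and its neighbours in their order on chromosome 7, in spleen and bone marrow. Cox6a2 (3.65 and 2.25), Itgad (2.68 and 2.40) and Itgax (1.36 and 1.46) lay next to each other and were the highest, and Itgam lay below 0.

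Likeness to Cox6a2 was ranked among the tested genes, leaving out predicted Gm and Rik entries and olfactory or vomeronasal receptors. In this ranking the genes whose signal most resembled that of Cox6a2 over the 12 arrays were Ptpn6 (Pearson r = 0.98), Ms4a6b (0.97), Gzmk (0.97), Twsg1 (0.97) and Rhoq (0.96). Those most opposed were Usp33 (-0.98) and Slc9a9 (-0.97). The arrays fall into a KO and a WT set, so these values mostly record a genotype difference and carry no test. Gzmk, a granzyme gene, had differences of 1.74 in spleen and 0.63 in bone marrow, and Ptpn6, which encodes the phosphatase SHP-1, 1.19 and 0.88. Among the subunits, r with Cox6a2 was 0.54 for Cox5a, 0.53 for Cox7a2, 0.50 for Cox4i1 and -0.45 for Cox6a1.

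Markers of other cells that express Cox6a2 or could pass the sort were read beside it. All 12 NK cell markers lay above the filter, with a mean log2 signal of 11.62 to 11.71 in KO spleen and 11.46 to 11.56 in WT spleen, and of 11.41 to 11.55 in KO bone marrow and 11.19 to 11.38 in WT bone marrow. Of the 12, Gzmb rose in each organ (1.14 ± 0.12 in spleen and 1.31 ± 0.14 in bone marrow) and none fell. Over all tested genes, 5.48% rose and 3.63% fell in spleen, and 3.92% rose and 4.73% fell in bone marrow. Over both organs 4 of the 12 NK cell markers rose (Il2rb, Gzma, Gzmb and Id2) and 0 fell, where 8.81% of all tested genes rose and 10.3% fell. Of 27 striated muscle genes 11 lay below the filter, and their mean was 5.38 to 5.51 in KO spleen and 5.42 to 5.51 in WT spleen, and 5.43 to 5.53 in KO bone marrow and 5.30 to 5.40 in WT bone marrow. The muscle genes as a list lay near the filter in every group, overlapping between genotypes in spleen and slightly higher in every KO array of bone marrow. Of the 16 tested, 0 were called in spleen and 1, Pln (0.76 ± 0.19, limma, Benjamini-Hochberg adjusted p = 0.0284), in bone marrow. The Pln call was lost in 4 of 18 settings, those without KO bone marrow 2, KO bone marrow 3, WT bone marrow 1 or WT bone marrow 2.

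Plasmacytoid dendritic cell markers had a mean of 6.82 to 6.96 in KO spleen and 6.69 to 6.78 in WT spleen, and of 6.81 to 7.05 in KO bone marrow and 6.70 to 6.79 in WT bone marrow. The defining markers Siglech and Spib were below the filter. Of 10 tested, 2 rose in spleen (Tcf4 and Mctp2, against 5.48% of all tested genes) and 2 in bone marrow (Pacsin1 and Tcf4, against 3.92%). Tcf4 differed by 0.64 ± 0.12 in spleen and 0.67 ± 0.13 in bone marrow. None fell in either organ. Members not called in an organ went both ways: Bst2 differed by -0.24 ± 0.17 in spleen, and Irf8 by -0.47 ± 0.20 and Ccr9 by 0.72 ± 0.24 in bone marrow. Over both organs 4 of 10 rose (Ccr9, Pacsin1, Tcf4 and Mctp2) and 0 fell, where 8.81% of all tested genes rose and 10.3% fell. The Tcf4 call was lost without WT spleen 3 in spleen, and both bone marrow calls without WT bone marrow 1. Siglech was 5.31, 5.30 and 5.28 in KO spleen, against 5.61, 5.51 and 5.27 in WT spleen.

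Conventional dendritic cell markers had a mean of 6.58 to 6.73 in KO spleen and 5.98 to 6.26 in WT spleen, and of 6.41 to 6.51 in KO bone marrow and 5.98 to 6.13 in WT bone marrow. In spleen 5 of 7 tested rose (5.48% of all tested genes), among them Itgax and H2-Aa (2.00 ± 0.33). In bone marrow 1 rose, Itgax (3.92%). Over both organs 5 rose and 1, Batf3, fell (8.81% and 10.3%). The Batf3 mean was 6.35 in KO and 6.69 in WT spleen, and 6.16 in KO and 6.54 in WT bone marrow. Zbtb46 was tested and not called. Flt3, Xcr1, Clec9a, Cd209a and Ciita were below the filter. Granulocyte markers had a mean of 5.69 to 6.26 in KO spleen and 5.33 to 5.80 in WT spleen, and of 5.87 to 6.53 in KO bone marrow and 7.16 to 7.36 in WT bone marrow. Of 8 tested, 1 rose in spleen (S100a8), where 5.48% of all tested genes rose. In bone marrow 4 fell (S100a8, Lcn2, Retnlg and Camp), where 4.73% of all tested genes fell. T cell markers had a mean of 6.17 to 6.41 in KO spleen and 6.38 to 6.52 in WT spleen, and of 6.20 to 6.46 in KO bone marrow and 6.90 to 7.07 in WT bone marrow. Of 7 tested, 2 fell in spleen (Cd3d and Cd28) and 4 in bone marrow (Cd3d, Cd3e, Cd3g and Cd28). The shares of all tested genes that fell were 3.63% in spleen and 4.73% in bone marrow. B cell and erythroid marker means overlapped between KO and WT in both organs. The array means did not overlap between genotypes for the NK and both dendritic cell lists in either organ, higher in KO, or in bone marrow for the muscle list, higher in KO, and the granulocyte and T cell lists, lower in KO. The part of these lists in the Cox6a2 difference was not tested.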

How the data were processed

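Deposited by the authors were log2 probe set signals, made with Affymetrix Expression Console and RMA, per the submitters' processing notes. RMA corrects background, normalizes quantiles across arrays and summarises probes. No version or build is given in the sources used here. RNA was extracted with Trizol and amplified with NuGEN Ovation PicoSL WTA V2, per the labels' protocols. Array medians lay between 5.75 and 5.87.

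Of 35556 probe sets, 21789 had 1 gene symbol, 1621 several and 12146 none. The 21698 found by gene identifier in RefSeq (GRCm38.p6) needed 0 new symbols. The highest-mean probe set was kept for each of 19938 symbols, and the 11963 whose mean exceeded the 40th percentile (5.49) were tested.

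A limma 3.58.1 model (R 4.3.3) had 4 group means and the run of array numbers as a covariate (7 residual and 4.74 prior degrees of freedom). Run 2 held WT spleen 3, KO spleen 1 and 2, and WT bone marrow 2 and 3. Calls used a Benjamini-Hochberg adjusted p under 0.05 over all tested genes, two-sided. The steps were tested on simulated data. The number of arrays limits the precision.

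The genes and lists were chosen with earlier results of these data known. Named were the 10 subunits, Mir142, up to 4 called genes of each list (otherwise the 2 with the smallest p), the 5 nearest genes on each side of Cox6a2, the 5 most like and 2 least like it, and markers called or below the filter. Genes called only over both organs, and Higd1a, were named after their values were seen. Normalization, filter, probe choice, priors, run, replicate block and single arrays were varied.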

Additional observations from a re-analysis of the deposited data

Results flagged for a closer look

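The KO minus WT difference of Cox6a2 was smaller in bone marrow than in spleen by -1.40 ± 0.28 (log2, SE). It was singled out because the organs ran in opposite directions in the genotypes, with bone marrow minus spleen at -0.68 in KO and 0.72 in WT and no overlap of arrays in either. The Cox6a2 difference was not tested, because the choice of the gene rests on the values over the 4 groups. Opposite directions were not particular to Cox6a2. Among the genes most like it, Gzmk stood at -0.60 in KO and 0.52 in WT. Ms4a6b (-0.15 and 0.22) and Ptpn6 (-0.15 and 0.17) did so by less, and Twsg1 and Rhoq did not. These genes were picked for their likeness to Cox6a2, so nothing further is read from this.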

How the results depend on the processing

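Of 295 values of 15 results under other settings, 273 stayed within the mean replicate SD of the reported value, or within 1.5 times for counts, and 22 moved. No Cox6a2 difference changed sign, and the median of the other 9 subunits in bone marrow, at about 0, did so in 9 of 20 settings. For 16 named genes varied in the same way, chosen after seeing the data, no called difference changed sign. Among those not called 2 did: H2-Aa in bone marrow (-0.03 without WT bone marrow 1) and Pprc1 in spleen (-0.01 without WT spleen 1). With single arrays left out, the Cox6a2 difference ranged from 3.44 to 3.96 in spleen and from 2.10 to 2.41 in bone marrow, and Cox6a2 minus Cox6a1 in spleen from 3.50 to 4.05. The organ difference of the KO effect ranged from -1.87 to -1.08, bone marrow minus spleen from -0.83 to -0.41 in KO and from 0.63 to 1.03 in WT. Counts of called genes in the oxidase lists ranged from 1 to 4 in spleen, 1 to 3 in bone marrow and 3 to 9 over both organs. The spleen count was 1 with no filter on low values, where more genes were tested, and the bone marrow count was 1 with bone marrow fitted alone, which had fewer arrays. With a replicate block, Cox6a2 differed by 3.66 (spleen), 2.24 (bone marrow) and 2.95 (both), and the counts were 5, 3 and 9. The labels' replicate numbers were not taken as pairs: 6 of 18 same-numbered pairs correlated above 0.1 (range -0.02 to 0.24), although 15 correlated best with their own number, a hint from the data. All KO bone marrow arrays were in run 1, and Cox7a1 lay near the filter, where differences may be compressed.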
